A study of Mus musculus with 48 samples.

Results

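The genes of the collagenous scar matrix were followed here in bulk RNA from the mouse brain after stroke. The list named 51 genes, and all 51 were found among the 46983 genes of the count tables. All 51 also had more than 10 counts over the 48 libraries, as did 19970 genes in all. By role the list held 6 fibrillar collagens, 3 fibril-associated collagens, 3 chains of collagen VI, 2 of collagen VIII, 4 basement membrane collagens, 7 laminin chains and 3 linkers of the basement membrane. It further held 6 genes of fibronectin and the elastic fibers, 5 small leucine-rich proteoglycans, 4 matricellular genes and 8 genes that process or chaperone collagen. The study describes the bulk tissue in different ways. Its methods name the cortex at the injury, lesioned and spared parts together, and its results name almost the whole hemisphere on the lesion side. In either case the tissue was not a dissected scar.

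Fibrillar collagens are secreted as procollagen, trimmed at their ends, assembled into fibrils and cross-linked by lysyl oxidases, and they give tissue its tensile strength. Basement membranes are thin sheets of laminin and collagen IV networks joined by nidogen and perlecan, and in the healthy brain they line the vessels and the pial surface. Interstitial collagen is otherwise sparse in the brain and lies mainly in the meninges and around larger vessels. After an ischemic lesion, fibroblast-lineage cells deposit collagen and fibronectin in the lesion core, while astrocytes form a border around it.

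Permanent middle cerebral artery occlusion (MCAO) blocks and cuts a cortical artery, and it was compared with sham surgery and with intact cortex. The mice were 3-month-old C57Black/6 males without a transgene, and the sham groups went through the same opening of skull and dura without coagulation of the artery. There were 4 control libraries, 4 sham libraries at each of 3 h, 12 h, 24 h, day 3 and day 7, and 5 MCAO libraries at each of those times except 24 h, which had 4. Libraries are named by the letters of their labels, A to E, and values are listed in that order. The study describes its bulk replicates as mice, which the labels of the libraries do not state. The p-values rest on the spread between libraries of a group, estimated per gene over all 48 libraries. Groups outside a comparison thus enter its p-values, also where the groups differ in spread. The kit primes at the 3′ end of messenger RNA (QuantSeq), and levels are given as CPM, a gene's counts divided by its library's total after edgeR's TMM factors and brought to 1 common scale. Levels are compared between libraries for 1 gene and not between genes. In bulk tissue, a gene's level falls alike with fewer cells of a type and with less RNA per cell, and these cannot be told apart. A gene was called when the Benjamini-Hochberg adjusted p of edgeR's quasi-likelihood test, over the 19970 genes, was under 0.01 and the absolute log2 fold change over 0.58. Fold changes are log2 values ± SE from 1 fit of the 48 libraries.

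The libraries held 1522668 to 2826735 counts on genes (median 1935856). Depth limited the low genes, since 13 members had a mean under 10 counts per library and 14 had at least 1 library at 0. The 10 neuronal markers summed to 5768 to 10774 CPM over the 48 libraries, and no library lacked them. The 8 striatal markers summed to 190 to 4562 CPM. Those of choroid plexus summed to 512 CPM in control A and to 0.569 to 9.55 CPM in the other controls. How much tissue outside the cortex each library held was not tested. MCAO replicate C at day 7 stood apart from the other libraries of its group. It held the highest value of that group for 45 of the 51 members (88.2%) and for 5557 of all 19970 genes (27.8%), and for 38 members its value was at least 2 times the next. Its neuronal markers summed to 5768 CPM against 8115 to 9409 in the other 4 libraries at day 7. Each call of a member at day 7 against sham is therefore given with and without this library. At day 3 the MCAO libraries also spread widely, with replicate E the highest for 36 members and replicate A the lowest for 25.

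Sequence around the start of transcription was on hand for 33 of the 51 members, as 300-base windows from RefSeq (GRCm38.p6) that run from 250 bases before to 50 bases after the start. Windows of 4 collagen genes are printed because *Col1a2* and *Col3a1* are the fibrillar genes with windows that had the largest changes, and because *Col4a1* and *Col4a2* lie head to head and share this DNA. Capitals mark each CCAAT box, read on either strand (ATTGG on the other). They are 5′ to 3′ on the strand of the gene.
Col1a2, chr6:4505368-4505667, plus strand: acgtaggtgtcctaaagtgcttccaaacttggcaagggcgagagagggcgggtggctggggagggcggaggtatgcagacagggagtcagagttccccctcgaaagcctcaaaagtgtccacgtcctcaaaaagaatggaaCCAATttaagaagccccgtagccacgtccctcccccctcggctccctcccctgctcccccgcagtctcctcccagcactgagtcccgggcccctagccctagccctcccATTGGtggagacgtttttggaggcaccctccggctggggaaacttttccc
Col3a1, chr1:45311288-45311587, plus strand: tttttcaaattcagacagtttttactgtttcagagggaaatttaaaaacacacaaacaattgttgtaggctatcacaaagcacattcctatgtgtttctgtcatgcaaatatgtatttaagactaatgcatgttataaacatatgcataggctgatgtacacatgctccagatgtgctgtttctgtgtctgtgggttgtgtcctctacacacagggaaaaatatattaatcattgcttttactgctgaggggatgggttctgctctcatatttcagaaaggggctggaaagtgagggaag
Col4a1, chr8:11312777-11313076, minus strand: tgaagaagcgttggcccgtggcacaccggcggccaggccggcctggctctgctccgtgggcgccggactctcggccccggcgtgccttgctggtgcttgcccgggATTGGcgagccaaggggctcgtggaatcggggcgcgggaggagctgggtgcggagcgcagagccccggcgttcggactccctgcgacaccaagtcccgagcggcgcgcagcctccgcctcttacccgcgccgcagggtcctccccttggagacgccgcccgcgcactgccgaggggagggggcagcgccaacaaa
Col4a2, chr8:11312555-11312854, plus strand: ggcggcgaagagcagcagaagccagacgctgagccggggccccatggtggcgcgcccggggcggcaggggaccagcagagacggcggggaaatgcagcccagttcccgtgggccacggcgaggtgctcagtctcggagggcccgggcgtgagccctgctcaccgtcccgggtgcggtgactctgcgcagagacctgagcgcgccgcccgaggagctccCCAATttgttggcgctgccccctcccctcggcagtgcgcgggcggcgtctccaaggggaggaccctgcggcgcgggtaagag

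The starts of *Col4a1* and *Col4a2* lay 21 bases apart on opposite strands and their windows had 78 bases in common. Each of these windows held 1 CCAAT box, the *Col1a2* window held 2 and the *Col3a1* window none, though it held TATAAA 117 bases before the start. CCAAT was present in the windows of 11 of the 33 members and in 37.4% of all 32851 windows. GGGCGG, the core of the GC box bound by Sp1-type factors, was present in the windows of 23 of the 33 members and in 35.7% of all windows. TGANTCA, the AP-1 motif, was present in the windows of 2 of the 33 members and in 7.81% of all windows, and TATAAA in those of 5 members and in 13.6%. These matches describe the letters and show no binding.

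Calls among the matrix genes began at day 3, apart from a single fall at 12 h. Against sham of the same time, 14 of the 51 members rose at day 3 and none fell, where 3.76% of the 19970 genes rose and 0.26% fell. At day 7, 19 members rose and none fell, where 2.07% of all genes rose and 1.43% fell. All of the 36 members at day 3 and of the 39 at day 7 with an unadjusted p under 0.05 had higher values after MCAO. Of all 19970 genes, 2730 had such a p with higher and 1576 with lower values at day 3, and 2730 and 1967 at day 7. Without replicate C at day 7, only *Col1a1*, *Col1a2*, *Col3a1* and *Sparc* rose, 4 of 51, where 0.718% of all genes did. The count at day 3 also moved with single libraries: it was 9 without MCAO replicate C, 7 without E, 20 without A and 17 without D, and 7 or 8 without any 1 of the 4 shams. The calls of *Col4a1*, *Col16a1*, *Fn1*, *Sparc*, *Thbs1*, *Loxl2* and *Plod1* at day 3, 7 of the 14, held in all 9 fits that left out 1 library. At day 7 there were 12, 12, 16 and 9 calls without sham A, B, C and D and 18 to 25 without MCAO A, B, D or E. All these fits took the spread from every group. When only the groups compared were fitted, calls were far fewer at both days. In those fits 29 of the 33 fold changes chosen by rule, over all comparisons, lost their call. The 33 include *Lama1*, *Lama2* and *Postn* at day 7, which were not called in the main fit and had no call to lose. With DESeq2 the counts were 17 at day 3 and 25 at day 7, where 4.71% and 3.39% of all genes rose and 0.431% and 2.06% fell. The calls it added were those of *Lama4*, *Hspg2* and *Bgn* at day 3 and of *Col6a2*, *Fbln1*, *Lum*, *Thbs2*, *Loxl2* and *Plod1* at day 7.

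The median log2 fold change over the 51 members was 1.44 at day 3, while the median over all genes was 0.01. At day 7 it was 1.57 (0.70 without replicate C), while the median over all genes was 0.06 (0.04). It had been 0.16, 0.29 and 0.38 at 3 h, 12 h and 24 h, while the median over all genes was 0.00, 0.01 and 0.02. By edgeR no member was called at 3 h, where 0.0901% of all genes rose and 0.02% fell, and 3 members had an unadjusted p under 0.05. Of all 19970 genes, 984 had such a p with higher and 704 with lower values. At 24 h again none was called, where 0.0801% of all genes rose and 0.01% fell, and 7 had an unadjusted p under 0.05. Over all genes, 1044 had such a p with higher and 713 with lower values. DESeq2 called none at either time. At 12 h, 1 member fell (*Lama2*) and none rose, where 0.0651% of all genes fell and 0.346% rose. DESeq2 also called 1 member there, and 10 had an unadjusted p under 0.05, 9 of them with higher values after MCAO. Over all genes at 12 h, 1696 had such a p with higher and 1217 with lower values.

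The sum of the 51 members also rose late, but its median after MCAO was lower at 24 h than at 12 h and lower at day 7 than at day 3. *Sparc* weighed heavily in it, with medians of 413 CPM after MCAO and 170 CPM in sham at day 7. The sum ran from 676 to 729 CPM in the 4 control libraries, with a median of 696. The sham medians lay between 673 and 742 CPM at the 5 times. After MCAO the median was 729.6 CPM at 3 h, 987 at 12 h, 930.2 at 24 h, 1651 at day 3 and 1509 at day 7. The range widened late, from 921 to 4171 CPM at day 3 and from 998 to 10563 at day 7, where replicate C held the top value. The highest of the 11 group medians fell in MCAO at day 3 for 32 members and in MCAO at day 7 for 13.

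**Figure D1:**
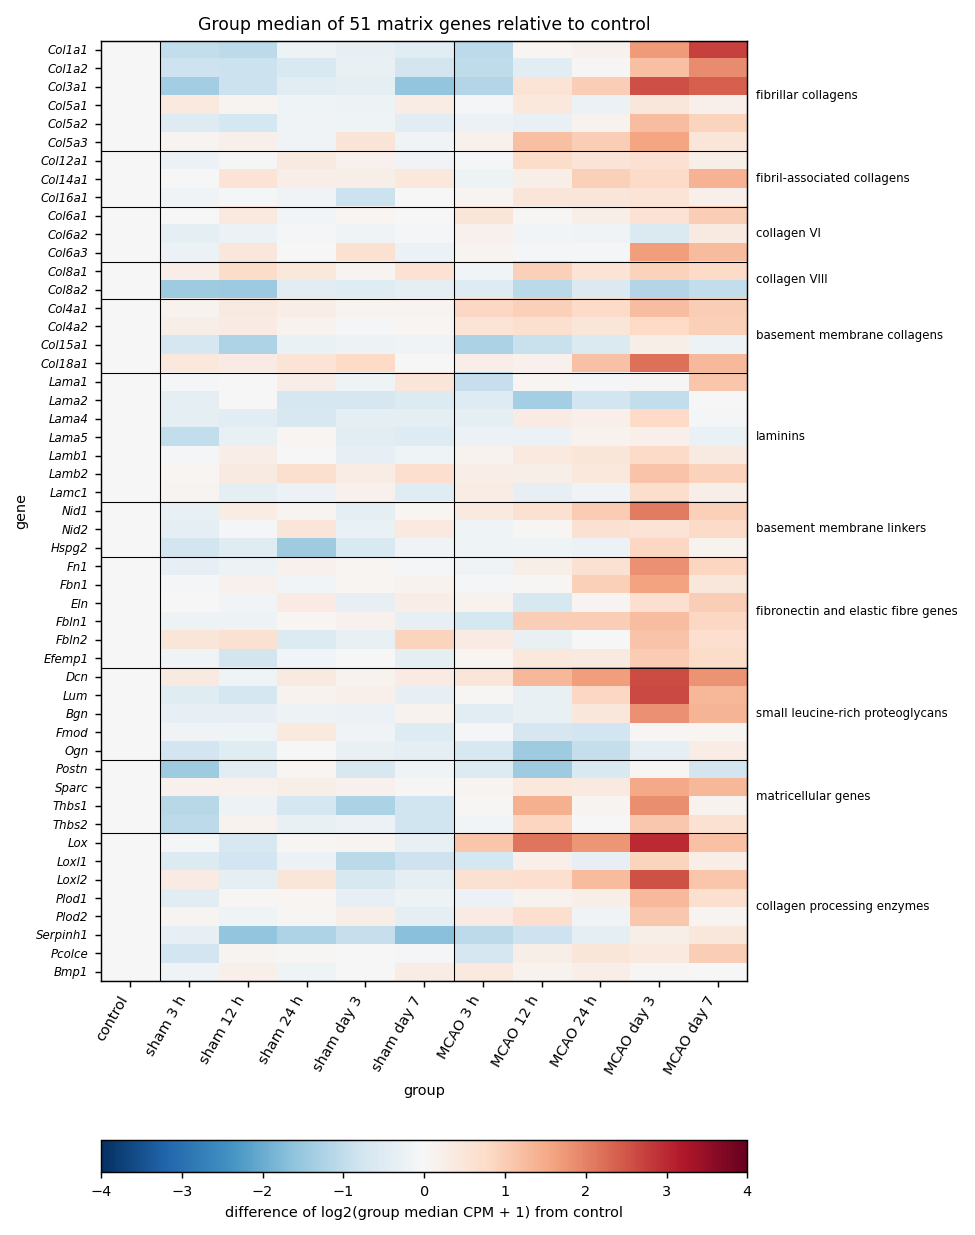
Heat map of the 51 genes (rows, ordered by role) in the 11 groups (columns); color gives the group median of log2(CPM + 1) minus that of the control group. The warm colors gather in the MCAO columns at day 3 and day 7, where 32 and 13 genes had their highest group median, and the sham columns stay close to control.

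At 12 h and 24 h, before any rise was called, all MCAO libraries lay above all sham libraries for a larger share of members than of all genes. At 3 h this order held for *Col4a1* and *Thbs1*, 2 of 51 members, near the 2.26% of all genes for which it held. For *Thbs1* it rested on few counts, 39 in all MCAO libraries and 4 in all shams. At 12 h it held for 7 members (*Col3a1*, *Col4a1*, *Col4a2*, *Lama4*, *Fbln1*, *Dcn* and *Lox*), where it held for 2.03% of all genes. At 24 h it held for 6 (*Col3a1*, *Col4a1*, *Col4a2*, *Fbn1*, *Dcn* and *Lox*), where it held for 3.76%. *Col4a1* was in the list at every time up to day 7. At day 3 the groups did not overlap for 6 members (*Col16a1*, *Col4a1*, *Col4a2*, *Fn1*, *Sparc* and *Lox*), where 4.33% of all genes had this order, and at day 7 for 14, where 5.38% did. The other 4 libraries at day 7, without C, lay above all shams for 15 members, where 6.72% of all genes had this order.

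Some markers of cell types also changed at these days. The 18 markers of vascular and leptomeningeal fibroblasts, cells known as a source of collagen in brain, summed to 297 to 488 CPM in sham at day 7. After MCAO at day 7 they summed to 374 to 649 CPM in 4 libraries and to 2188 CPM in replicate C. At day 3 they summed to 379 to 433 CPM in sham and to 421 to 1172 CPM after MCAO. Of the 18, 3 rose at day 3 (*Cyp1b1*, *Lgals1* and *Igfbp2*) and 3 at day 7 (*Pdgfra*, *Foxd1* and *Lgals1*), with none by edgeR at day 7 without replicate C. Most of the list was not called. Its median log2 fold change was 0.26 at day 3 and 0.52 at day 7 against sham, and 0.05 and 0.17 against control. The study also used *Pdgfra* as a marker of oligodendrocyte precursor cells. No fibroblast marker was at 0 in all libraries of any group. The 12 macrophage and microglia markers summed to 363 to 539 CPM in sham at day 7, to 757 to 1237 CPM in the other 4 MCAO libraries and to 6892 CPM in replicate C. Of these, 8 rose at day 3 and 7 at day 7, of which *Cd68*, *Lyz2* and *C1qa* remained without replicate C. The part of these cells in the matrix results was not tested.

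The other marker lists differed in their calls. Of 12 endothelial markers, 4 rose at day 3 and none by edgeR or DESeq2 at day 7 (2 with an unadjusted p under 0.05), and their sum was 383 to 876 CPM after MCAO at day 3 against 380.2 to 421 CPM in sham. Of 12 pericyte and smooth muscle markers, 2 rose at day 3 (*Notch3* and *Tagln*) and 1 at day 7 (*Pdgfrb*, not without replicate C). Replicate C held 401 CPM of them at day 7 and the other 4 MCAO libraries 147 to 240.5 CPM. Of 8 proliferation genes, 5 rose at both days, and of 5 blood genes 3 rose at day 3 and 4 at day 7. The proliferation genes summed to 278 CPM in replicate C at day 7, to 36.5 to 46.7 CPM in the other 4 MCAO libraries and to 7.30 to 10.3 CPM in sham. For the proliferation, blood, astrocyte and neuronal lists, the day 7 calls are given with all libraries only. Of 9 astrocyte markers, 2 rose at day 3 and 3 at day 7, with *Gfap* among them at both. None of 8 choroid plexus markers was called by edgeR or DESeq2 at either day (1 and 2 with an unadjusted p under 0.05). Of 10 neuronal markers, *Snap25* fell at day 3 and *Rbfox3* at day 7. Of 7 oligodendrocyte markers none was called by edgeR at either day (1 by DESeq2 at day 3, and 3 and 2 with an unadjusted p under 0.05). Of 8 striatal markers none was called at either day by edgeR or DESeq2 or had an unadjusted p under 0.05. The part of these cells in the matrix results was not tested either.

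Fibrillar and basement membrane genes were set side by side by a mean per library, the mean over a list of log2(CPM + 1) minus that of the control libraries, given as a description with no test. The 6 fibrillar genes changed by −0.52 ± 0.23 (SD, n = 5) at 3 h after MCAO, by 0.20 ± 0.42 at 12 h, by 0.40 ± 0.23 (n = 4) at 24 h, by 1.44 ± 1.39 (n = 5) at day 3 and by 1.77 ± 1.77 (n = 5) at day 7. The sham means were −0.55, −0.50, −0.30, −0.12 and −0.48 in the same order. The 14 basement membrane genes (type IV, XV and XVIII collagens, laminins and linkers) changed less, by −0.06 ± 0.08, 0.02 ± 0.17, 0.21 ± 0.16, 0.79 ± 0.74 and 0.76 ± 0.83. Their sham means were −0.18, −0.06, −0.06, −0.14 and −0.10.

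At day 7 the fibrillar mean was 0.41, 0.62, 4.79, 1.69 and 1.36 in MCAO libraries A to E, and −0.66, −0.35, 0.05 and −0.98 in the shams. All 5 MCAO libraries were above the 4 shams, with C far above the other 4. The basement membrane mean at day 7 was 0.11, 0.25, 2.19, 0.72 and 0.53 after MCAO, and −0.21 to −0.01 in sham, again without overlap. The fibrillar mean minus the basement membrane mean was above 0 in all 5 MCAO libraries at day 7 (0.30 to 2.60, median 0.83) and in all 4 at 24 h (0.108 to 0.320), where the shams ran from −0.49 to 0.115 and overlapped them. At day 3 it ran from −0.41 to 1.56 after MCAO and from −0.08 to 0.15 in sham, and at day 7 in sham from −0.77 to 0.07.

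**Figure D2:**
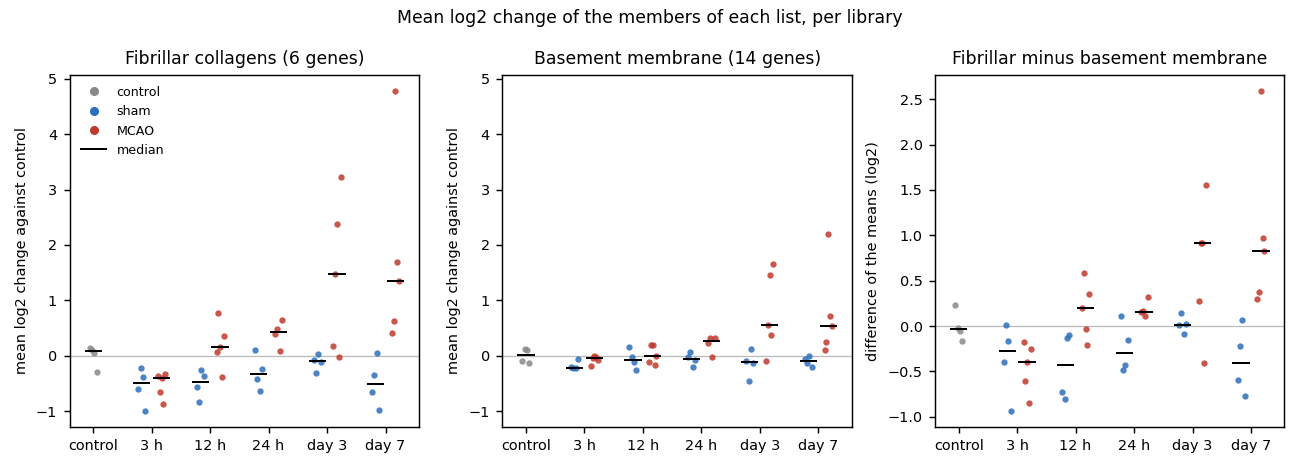
Mean log2 change against control per library (y axis, log2(CPM + 1)) for the 6 fibrillar collagens, the 14 basement membrane genes and their difference, in the 11 groups (x axis); each point is a library. The fibrillar values reach 4.79 at day 7 in replicate C and 0.41 to 1.69 in the other 4 MCAO libraries, and the basement membrane values 2.19 and 0.11 to 0.72.

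In the tests of single genes, the 6 fibrillar collagens had a median log2 fold change of 2.30 at day 3 and 4.05 at day 7, and 1.99 at day 7 without replicate C. For the 14 basement membrane genes the medians were 1.16, 1.06 and 0.50. Of the fibrillar genes 2 rose at day 3 and 4 at day 7 (3 without C), and of the basement membrane genes 4 rose at day 3 and 5 at day 7 (none without C). Both lists thus had calls against sham at both days, and the fibrillar genes kept 3 of theirs without the outlying library. The fibrillar mean of sham at day 7 was below control (−0.48). Against control, *Col1a1*, *Col1a2* and *Col3a1* were not called at day 7 without that library (2.43, 1.64 and 2.08).

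*Col1a1*, which encodes the α1 chain of type I collagen, stood at 21.8, 20.2, 16.9 and 12.0 CPM in the controls and at 19.9, 9.23, 22.9 and 8.43 CPM in sham at day 3. After MCAO it stood at 24.0, 62.4, 108, 6.84 and 347 CPM at day 3, where it rose by 2.85 ± 0.75 (adjusted p = 0.00970) although replicate D was below the sham range and replicate A just above it. *Col1a1* at day 7 stood at 39.2, 52.9, 2089.7, 161 and 129.6 CPM after MCAO and at 9.72, 13.1, 13.6 and 14.6 CPM in sham. All 5 MCAO libraries were above all shams, and the rise was 5.26 ± 0.82 (adjusted p = 3.70e-05), or 2.90 without replicate C (adjusted p = 0.00153). The ratio of group medians was 4.27 at day 3 and 9.71 at day 7, and 6.84 at day 7 without replicate C. The call at day 3 was lost without MCAO replicate C (2.85), MCAO replicate E (1.72) or any 1 of the shams (2.65 to 3.10).

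*Col1a2* encodes the α2 chain that joins 2 α1 chains in type I collagen. It stood at 24.0, 16.8, 25.6 and 9.58 CPM in sham at day 7 and at 46.1, 55.0, 1669, 168 and 133 CPM after MCAO. Here too no MCAO library fell into the sham range. The rise was 4.46 ± 0.75 (adjusted p = 1.07e-04), and 2.42 without replicate C (adjusted p = 0.00497). *Col1a2* at day 3 stood at 36.8, 81.3, 158, 21.5 and 412 CPM after MCAO and 23.9, 32.3, 39.2 and 16.9 CPM in sham, a difference of 2.34 ± 0.68 that was not called (adjusted p = 0.0201).

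*Col3a1*, the chain of type III collagen, which accompanies type I in compliant tissue and early repair, had the largest fold change of the members at day 7. It stood at 2.29, 1.40, 5.45 and 1.37 CPM in sham and at 14.4, 13.2, 1266, 59.5 and 44.5 CPM after MCAO, without overlap. It rose by 6.74 ± 1.07 (adjusted p = 4.58e-05), and by 3.66 without replicate C (adjusted p = 0.00210). *Col3a1* at day 3 stood at 5.80, 5.54, 3.27 and 8.90 CPM in sham and 12.3, 50.2, 105, 4.88 and 278 CPM after MCAO, and it rose by 3.93 ± 0.91 (adjusted p = 0.00306) with replicate D inside the sham range. The call at day 3 was lost without MCAO replicate E (2.87) or without any 1 of the shams (3.75 to 4.18). The ratio of medians to sham was 8.85 at day 3 and 24.1 at day 7, and 16.0 at day 7 without replicate C. Against control the rise at day 7 was smaller (5.16), and without replicate C the difference of 2.08 was not called. Its MCAO libraries were already all above sham at 12 h and 24 h, with differences of 2.05 ± 1.08 and 1.70 ± 1.07 that were not called (adjusted p = 0.378 and 0.663).

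The type V chains, which nucleate fibrils and set their diameter, moved less evenly. *Col5a2* rose by 3.65 ± 0.80 at day 7 (adjusted p = 0.00222), from 0.912 to 3.27 CPM in sham to 3.46, 6.62, 107, 5.76 and 8.77 CPM after MCAO, and the call was lost in 3 of 9 leave-one-out fits, among them that without replicate C (1.57, adjusted p = 0.179). *Col5a1* ranged from 15.5 to 28.9 CPM in sham and stood at 9.23, 12.7, 108, 24.9 and 21.3 CPM after MCAO, and the 4 libraries other than C overlapped sham. *Col5a3* was not called at either day against sham, but against control it rose by 2.14 ± 0.53 at day 3 (adjusted p = 0.00739, lost in 6 of 9 leave-one-out fits), with 1.69 to 2.85 CPM in control and 3.74 to 21.5 CPM after MCAO.

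**Figure D3:**
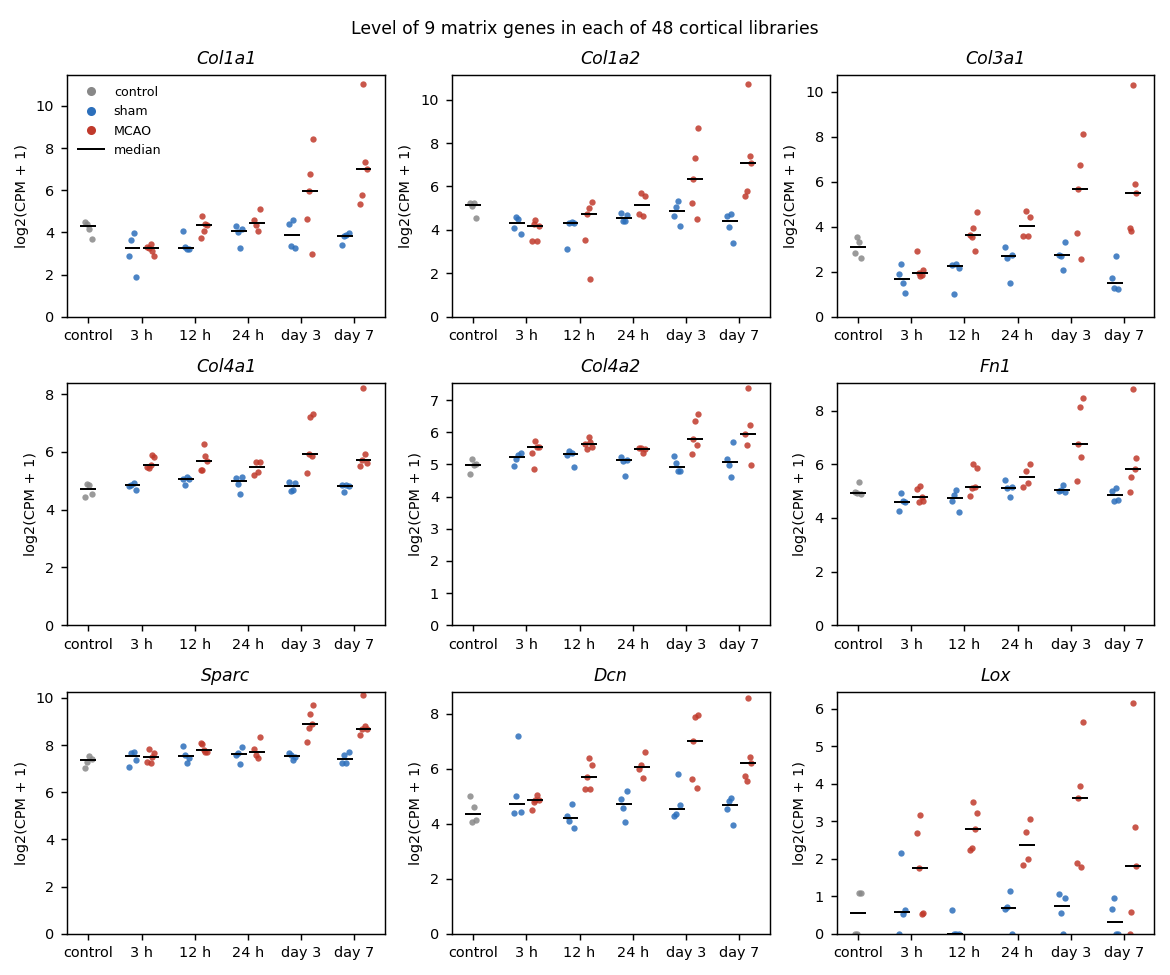
Levels of 9 genes in all 48 libraries (y axis, log2(CPM + 1); x axis, the 11 groups); each dot is a library and each bar the group median. For the type I and III collagen chains all MCAO libraries lie above all shams at day 7, where *Col1a1* reaches 2089.7 CPM in replicate C and 39.2 to 161 CPM in the other 4 libraries.

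The fibril-associated collagens sit on the surface of fibrils and link them to the surrounding matrix. *Col16a1* rose at day 3 by 1.56 ± 0.28 (adjusted p = 1.09e-04), from 18.9, 24.5, 32.7 and 15.5 CPM in sham to 48.04, 56.9, 59.9, 88.4 and 82.4 CPM, with no overlap. At day 7 the difference was 0.62 ± 0.27 (adjusted p = 0.139) and the groups overlapped, with sham then at 33.2 to 48.8 CPM. Sham at day 3 was the low group here, as the controls ranged from 34.4 to 46.7 CPM, and against control the difference at day 3 was 0.73 ± 0.27 (adjusted p = 0.0915). *Col12a1* and *Col14a1* were not called, and at day 7 their values outside replicate C (4.32 to 8.14 CPM and 0.577 to 4.07 CPM) overlapped sham.

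Collagen VI forms beaded microfilaments next to cells. *Col6a1* stood at 20.02, 18.7, 22.9 and 17.8 CPM in sham at day 7 and at 39.2, 37.7, 72.6, 39.8 and 43.2 CPM after MCAO. Every MCAO library was above every sham, and it rose by 1.23 ± 0.27 (adjusted p = 0.00268). Without replicate C the difference was 1.01 and no longer called (adjusted p = 0.0224), though the 4 remaining libraries still did not overlap sham. It was not called either without sham B or D (1.20 and 1.16). *Col6a1* at day 3 stood at 22.5 to 32.6 CPM after MCAO and 17.3 to 34.2 CPM in sham, a difference of 0.33 ± 0.27 (adjusted p = 0.505). *Col6a3* rose by 3.57 ± 0.78 at day 7 (adjusted p = 0.00218) with replicate C at 124 CPM and the others at 4.04 to 9.60 CPM against 1.37 to 3.82 CPM in sham, and it was not called without C (1.57). *Col6a2* and both collagen VIII chains, *Col8a1* and *Col8a2*, were called in no comparison by edgeR, and DESeq2 called *Col6a2* at day 7 against sham. At day 7 *Col8a1* stood at 2.31 to 22.5 CPM outside replicate C and at 10.9 to 17.3 CPM in sham.

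*Col4a1*, the α1 chain of the collagen IV network of basement membranes, was the 1 collagen whose groups did not overlap at 3 h. At that time the members without overlap were near the share over all genes. At 3 h it stood at 27.3, 28.2, 29.6 and 24.5 CPM in sham and at 44.0, 42.0, 45.7, 57.7 and 55.1 CPM after MCAO, without overlap, and the difference of 0.84 ± 0.36 was not called (adjusted p = 0.520). *Col4a1* at day 3 rose by 1.77 ± 0.36 (adjusted p = 7.17e-04), from 29.7, 24.0, 24.8 and 29.5 CPM to 37.9, 60.1, 148, 56.6 and 159 CPM. *Col4a1* at day 7 rose by 1.90 ± 0.37 (adjusted p = 6.38e-04), from 28.0, 23.3, 27.8 and 26.9 CPM to 44.4, 51.4, 291, 59.97 and 48.2 CPM, again without overlap. Without replicate C the difference at day 7 was 0.95 (adjusted p = 0.0261), and the ratio of medians was 1.88 with all 5 libraries and 1.82 without C. The groups were apart at all 5 times, the day 3 call held in every leave-one-out fit (1.48 to 1.97), and the day 7 call was lost only without replicate C.

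*Col4a2*, its partner chain and head-to-head neighbor, took a similar but flatter course. *Col4a2* at day 3 rose by 1.03 ± 0.27 (adjusted p = 0.00988), from 37.7, 31.8, 26.6 and 26.7 CPM to 39.0, 54.2, 79.9, 47.4 and 94.3 CPM, and the call held in only 2 of the 9 leave-one-out fits (0.84 to 1.16). *Col4a2* at day 7 rose by 1.11 ± 0.27 (adjusted p = 0.00579), with 34.9, 30.3, 23.4 and 51.1 CPM in sham and 60.6, 47.8, 167, 73.9 and 30.7 CPM after MCAO. MCAO replicate E was inside the sham range there, and the call was lost without C (0.61, adjusted p = 0.117) and without sham A, B or C (0.97 to 1.11). *Col18a1*, the source of endostatin, rose at day 7 by 3.73 ± 0.78 (adjusted p = 0.00148), from 2.29, 1.40, 1.64 and 3.65 CPM to 4.04, 6.11, 127, 11.04 and 6.26 CPM. No library overlapped sham, but without replicate C the difference of 1.59 was not called (adjusted p = 0.147). *Col15a1* was not called, with 2.54 to 3.84 CPM outside replicate C at day 7 and 0 to 5.72 CPM in sham.

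Laminins are trimers of an α, a β and a γ chain, and their fold changes had a median of 0.74 at day 3 and of 0.78 at day 7 (0.20 without replicate C). Of the 7 chains 1 rose at day 3, *Lamb1*, by 1.32 ± 0.35 (adjusted p = 0.00981), from 16.0, 17.1, 22.4 and 8.90 CPM to 36.3, 28.9, 39.4, 21.5 and 74.5 CPM, where replicate D lay within the sham range and the call was lost in 6 of the 9 leave-one-out fits (0.97 to 1.51). At day 7 it was *Lamc1*, by 1.35 ± 0.33 (adjusted p = 0.00573), from 13.7, 13.1, 14.2 and 5.02 CPM to 17.9, 16.8, 59.5, 29.7 and 22.5 CPM. These are the common β and γ chains of most vascular laminins, and the *Lamc1* call was lost in 5 of 9 leave-one-out fits, among them that without C (0.93, adjusted p = 0.0721). *Lama4*, an α chain of endothelial basement membranes, was not called at day 3 (1.28 ± 0.35, adjusted p = 0.0142) or day 7 (0.78). *Lama5* and *Lamb2* were not called against sham, with day 7 values of 2.505 to 4.16 and 21.9 to 43.7 CPM after MCAO and of 1.82 to 5.45 and 24.0 to 41.1 CPM in sham.

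*Lama2*, the α2 chain, was the single member that fell in any comparison with all libraries. At 12 h it stood at 12.8, 9.39, 8.12 and 8.57 CPM in sham and at 4.08, 2.91, 2.09, 2.35 and 2.98 CPM after MCAO, so that every MCAO library was below every sham. It fell by 1.70 ± 0.36 (adjusted p = 0.00760), and the call was lost when any library but MCAO replicate A was left out. The 9 leave-one-out values lay between −1.89 and −1.55. At 12 h, 4 of 8 striatal markers had an unadjusted p under 0.05, all with lower values (list median −1.52, sums of 404 to 1585 CPM after MCAO and 735 to 2514 CPM in sham), and none was called by edgeR or DESeq2. Of 7 oligodendrocyte markers 3 did, all with lower values (median −0.75, 725 to 1583 CPM and 1068 to 2988 CPM), and none was called by either tool. No marker of these lists was at 0 in all libraries of both groups, and the part of these cells in the *Lama2* result was not tested. Control stood at 6.70, 10.1, 10.2 and 7.97 CPM. At 24 h the difference from sham was −0.36 and at day 3 −0.16, neither called. *Lama2* at day 7 stood at 5.72, 6.07, 5.996 and 2.74 CPM in sham and 4.61, 9.16, 11.3, 11.5 and 8.14 CPM after MCAO, a difference of 0.81 ± 0.35 (adjusted p = 0.146), or 0.72 without replicate C. *Lama1*, the α chain of pial and early vascular membranes, stood at 2.86, 0.933, 2.73 and 5.47 CPM in sham at day 7 and at 0.577, 1.02, 6.54, 4.80 and 5.64 CPM after MCAO, with wide overlap and a difference of 0.29 ± 0.75 (adjusted p = 0.861).

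Nidogens and perlecan join the laminin and collagen IV networks. *Nid1* rose at day 3 by 2.46 ± 0.60 (adjusted p = 0.00517), with 3.99, 1.85, 2.34 and 1.87 CPM in sham and 3.20, 16.3, 18.5, 6.84 and 26.9 CPM after MCAO, where replicate A lay within the sham range. That call was lost without MCAO replicate C or E or any 1 of the shams (2.11 to 2.80). *Nid1* at day 7 rose by 2.33 ± 0.59 (adjusted p = 0.00811), from 1.14, 2.33, 4.36 and 5.93 CPM to 6.92, 4.07, 60.1, 12.0 and 6.89 CPM, and the call was lost in 5 of 9 leave-one-out fits, with a difference of 1.09 without replicate C (adjusted p = 0.238). *Hspg2*, which encodes perlecan, differed by 2.00 ± 0.55 at day 3 (adjusted p = 0.0143), with 2.14, 7.23, 35.4, 12.7 and 34.8 CPM after MCAO, and *Nid2* by 1.92 ± 0.70 (adjusted p = 0.0790). Neither was called.

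*Fn1*, fibronectin, the provisional matrix on which collagen is laid down, rose at both days and against both references. Control stood at 30.1, 29.2, 39.5 and 29.0 CPM, sham at day 3 at 30.8, 32.3, 36.0 and 30.0 CPM and sham at day 7 at 31.5, 23.8, 33.3 and 24.6 CPM. *Fn1* at day 3 stood at 40.6, 108, 279.6, 76.2 and 355 CPM after MCAO, every library above every sham, a rise of 2.41 ± 0.48 (adjusted p = 5.03e-04) that held in every leave-one-out fit (1.96 to 2.66). *Fn1* at day 7 stood at 30.6, 45.3, 443, 55.2 and 74.5 CPM, with replicate A inside the sham range, a rise of 2.20 ± 0.49 (adjusted p = 0.00254). Without replicate C that difference was 0.86 (adjusted p = 0.168) and was not called, nor was it without sham B or D (2.13 and 2.11). Against control the rise at day 3 was 2.43 ± 0.49 (adjusted p = 7.03e-04) and held in every leave-one-out fit (1.98 to 2.68). At day 7 the rise against control was 2.01. That call was lost in 5 of 9 leave-one-out fits, without replicate C and without any 1 control, with values down to 0.68.

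*Eln*, elastin, turned on 1 library at day 7. It stood at 8.58, 9.33, 10.9 and 2.28 CPM in sham and at 3.46, 7.12, 469, 15.4 and 16.9 CPM after MCAO, with replicates A and B within the sham range. It rose by 3.72 ± 0.79 (adjusted p = 0.00176) with replicate C and differed by 0.47 without it (adjusted p = 0.647). *Fbn1*, *Fbln1*, *Fbln2* and *Efemp1*, the fibrillin and fibulins of microfibrils, were called in no comparison by edgeR, and DESeq2 called *Fbln1* at day 7 against sham. Their differences from sham lay between 1.08 (*Efemp1*) and 1.80 (*Fbn1*) at day 3, and between −0.17 (*Fbln2*) and 1.91 (*Fbln1*) at day 7.

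The small leucine-rich proteoglycans bind collagen fibrils and set their spacing. *Dcn*, decorin, stood at 31.2, 15.7, 23.1 and 16.5 CPM in control, 18.5, 19.4, 54.7 and 24.8 CPM in sham at day 3 and 48.04, 126, 232, 38.6 and 248 CPM after MCAO at day 3, where replicates A and D lay within the sham range. It rose by 2.25 ± 0.52 against sham (adjusted p = 0.00288), a call lost in 5 of 9 leave-one-out fits (1.93 to 2.17 in those). Against control it rose by 2.68 ± 0.54 (adjusted p = 8.21e-04), in every leave-one-out fit (2.36 to 2.92). *Dcn* at day 7 stood at 22.3, 27.5, 29.4 and 14.6 CPM in sham and 52.5, 45.3, 377, 85.4 and 72.0 CPM after MCAO, without overlap. The rise was 2.43 ± 0.54 (adjusted p = 0.00243), and without replicate C the difference of 1.45 was not called (adjusted p = 0.0611), nor was that of 2.23 without sham D.

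*Bgn*, biglycan, rose at day 7 by 2.68 ± 0.59 (adjusted p = 0.00243), from 11.4, 16.3, 18.5 and 19.2 CPM to 10.4, 23.9, 407, 41.7 and 48.2 CPM, with replicate A below the sham range. Without replicate C it differed by 0.92 (adjusted p = 0.232), and 3 other leave-one-out fits did not call it either. *Lum*, lumican, was not called (3.27 ± 0.90, adjusted p = 0.0146), with 2 of the 4 shams at day 7 at 0 CPM and the MCAO libraries at 1.15, 0.509, 51.8, 5.76 and 6.89 CPM. *Fmod* and *Ogn* were not called either, with differences of −0.30 ± 0.49 and −0.70 ± 0.46 at day 3.

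*Sparc*, osteonectin, a secreted calcium- and collagen-binding glycoprotein also made by vessels and glia in the intact brain, had the smallest adjusted p of the members at both days. It stood at 131, 157, 187 and 171 CPM in control, 199, 189, 163 and 182 CPM in sham at day 3 and 151, 188, 149.9 and 209 CPM in sham at day 7. After MCAO it stood at 282, 419, 642, 475 and 841 CPM at day 3 and 348, 413, 1108, 442 and 405 CPM at day 7. No MCAO library of these days overlapped sham or control. The rise was 1.54 ± 0.25 at day 3 (adjusted p = 2.59e-05) and 1.64 ± 0.25 at day 7 (adjusted p = 3.01e-05), and 1.20 without replicate C (adjusted p = 4.21e-04). It was the 1 member called at day 7 against both sham and control with and without that library.

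*Thbs1*, thrombospondin 1, an activator of latent TGF-β, had its highest group median at day 3. At 3 h it stood at 0.791, 0, 0.896 and 0 CPM in sham and 1.21, 5.67, 2.097, 7.75 and 0.911 CPM after MCAO, without overlap but not called (adjusted p = 0.588). The shams held 4 counts of it in all at 3 h, and the lowest MCAO value (0.911 CPM) was nearly equal to the highest sham value (0.896 CPM). *Thbs1* at day 3 stood at 0, 0.462, 1.87 and 0 CPM in sham and 1.07, 9.94, 94.9, 9.28 and 82.4 CPM after MCAO. It rose there by 6.02 ± 1.13 against sham (adjusted p = 2.33e-04), in every leave-one-out fit (5.40 to 7.60), and replicate A lay within the sham range. The sham libraries held 0 to 4 counts of it, so the size of the rise is imprecise. *Thbs1* at day 7 stood at 2.31, 1.53, 19.6, 3.84 and 1.25 CPM after MCAO and 0 to 1.87 CPM in sham, a difference of 2.60 ± 1.20 (adjusted p = 0.175).

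*Postn*, periostin, a matricellular protein of fibroblasts in scars, was not called at any time. *Postn* at day 7 stood at 1.72, 0.933, 1.09 and 1.82 CPM in sham and 0, 0, 41.0, 5.28 and 0.626 CPM after MCAO, where 2 libraries were at 0. The difference was 2.69 ± 1.01 (adjusted p = 0.0824) with replicate C and 0.14 without it (adjusted p = 0.981). *Thbs2*, thrombospondin 2, differed by 2.74 ± 0.72 at day 7 (adjusted p = 0.0111), with 1.73, 0.509, 27.4, 6.24 and 4.38 CPM after MCAO and 0.912 to 1.64 CPM in sham, and was not called.

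Of the genes that cross-link, modify or fold collagen, *Lox*, lysyl oxidase, was nearly absent outside MCAO. It stood at 0, 0, 1.13 and 1.14 CPM in control, 1.09, 0.462, 0 and 0.937 CPM in sham at day 3 and 2.67, 11.3, 14.5, 2.44 and 49.3 CPM after MCAO at day 3, without overlap. The pooled counts gave a ratio of 25.9 to sham at day 3 (95% interval 11.7 to 71.6, counting error only), and the test gave 4.52 ± 1.09 (adjusted p = 0.00452). *Lox* at day 7 stood at 0.572, 0.933, 0 and 0 CPM in sham and 0, 0.509, 70.2, 6.24 and 2.505 CPM after MCAO, where 2 libraries overlapped sham. The ratio was 39.6 (13.3 to 194), with 70.2 CPM in replicate C, and 5.16 ± 1.22 in the test (adjusted p = 0.00446), not called without C (2.47, adjusted p = 0.239) or without any 1 sham (4.73 to 6.07). The day 3 call was lost without MCAO replicate E (3.47) or any 1 sham (4.16 to 4.94). At 12 h all 5 MCAO libraries were above sham (3.71, 3.88, 10.4, 5.88 and 8.34 CPM against 0.558, 0, 0 and 0 CPM), but the adjusted p was 0.0583.

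*Loxl2*, a second lysyl oxidase, stood at 0, 0.923, 0 and 0 CPM in sham at day 3 and 0.534, 8.13, 20.5, 1.95 and 30.0 CPM after MCAO, with replicate A inside the sham range. It rose by 5.46 ± 1.07 (adjusted p = 4.34e-04), in every leave-one-out fit (4.80 to 7.64), and the ratio of pooled counts was 58.3 (15.8 to 487). *Loxl2* at day 7 differed by 4.11 ± 1.14 and was not called (adjusted p = 0.0150), with 0.577, 1.53, 20.2, 2.40 and 2.505 CPM after MCAO. *Loxl1*, a lysyl oxidase of elastic fibers, rose at day 7 by 3.27 ± 0.67 (adjusted p = 0.00123), from 2.29, 1.87, 1.09 and 3.65 CPM to 4.04, 5.60, 86.8, 10.1 and 5.64 CPM. The groups did not overlap, and without replicate C the difference of 1.48 was not called (adjusted p = 0.105).

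*Serpinh1* encodes HSP47, the endoplasmic reticulum chaperone of procollagen. It stood at 4.58, 2.80, 6.54 and 3.65 CPM in sham at day 7 and at 17.3, 19.3, 182, 32.6 and 21.3 CPM after MCAO, without overlap. It rose by 3.63 ± 0.70 (adjusted p = 6.29e-04), and without replicate C the difference was 2.37 (adjusted p = 0.0182), just short of the threshold. Sham at day 7 was low for this gene, as control stood at 7.25, 12.9, 20.9 and 17.7 CPM, and against control the difference of 1.88 ± 0.61 was not called (adjusted p = 0.0742). *Plod1*, a lysyl hydroxylase, rose at day 3 by 1.87 ± 0.36 (adjusted p = 3.21e-04), from 10.2, 15.7, 9.81 and 13.1 CPM to 14.4, 31.6, 77.9, 37.6 and 60.8 CPM, in every leave-one-out fit (1.57 to 2.09) though replicate A lay within the sham range. *Plod2*, *Pcolce*, an enhancer of procollagen trimming, and *Bmp1*, the trimming protease, were called in no comparison. *Bmp1* was among the few members with lower values after MCAO at day 7 (−0.33 ± 0.26, adjusted p = 0.467), with 18.2 to 28.8 CPM after MCAO and 21.8 to 39.5 CPM in sham.

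Against the intact controls, which the comparisons of each day share, 10 members rose at day 3, where 2.81% of all genes rose, and 13 at day 7, where 1.09% did. By edgeR none fell, where 0.28% and 0.411% of all genes fell, and 1 member at day 3 had a lower value at an unadjusted p under 0.05 and none at day 7. Of all 19970 genes, 1421 had a lower value at such a p at day 3 and 1240 at day 7. DESeq2 called 13 and 17 members, all higher, where it called 3.82% and 1.62% of all genes higher and 0.466% and 0.611% lower. At 24 h none was called, where 0.12% of all genes rose and 0.155% fell, 6 members had an unadjusted p under 0.05, and DESeq2 called none. Over all genes at 24 h, 1174 had such a p with higher and 1017 with lower values. The median over the 51 members was 0.36 at 24 h, 1.17 at day 3 and 1.51 at day 7. Without replicate C, *Sparc* was the 1 member called at day 7 against control, where 0.306% of all genes rose, and the median was 0.59. These counts too moved with single libraries. At day 3 there were 4 calls without MCAO replicate C, 4 without E and 4 or 5 without any 1 control, and 15 without A, and at day 7 between 4 and 8 without any 1 control.

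The largest called rises against control at day 3 were those of *Lox* (4.70 ± 1.17, adjusted p = 0.00742), *Thbs1* (4.39 ± 0.99, adjusted p = 0.00255) and *Loxl2* (4.30 ± 0.99, adjusted p = 0.00319). They were followed by *Col3a1* (3.54 ± 0.91, adjusted p = 0.00949), *Dcn* and *Fn1*. Control stood at 2.79, 0.562, 1.69 and 2.28 CPM for *Thbs1*, at 0, 0.562, 1.13 and 0.569 CPM for *Loxl2* and at 6.14, 10.68, 9.02 and 5.12 CPM for *Col3a1*. Calls of these and of *Lox* were each lost in 5 or 6 leave-one-out fits, while those of *Col4a1*, *Fn1*, *Dcn* and *Sparc* held in all 9. The ratio of pooled counts was 30.0 (95% interval 11.5 to 111) for *Lox* and 22.5 (8.59 to 83.9) for *Loxl2*.

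At day 7 the largest were those of *Col3a1* (5.16 ± 0.93, adjusted p = 4.71e-04), *Col1a1* (4.80 ± 0.80, adjusted p = 1.44e-04) and *Eln* (3.87 ± 0.81, adjusted p = 0.00253). Next came *Col1a2* (3.68 ± 0.71, adjusted p = 0.00104), *Col18a1* (3.65 ± 0.79, adjusted p = 0.00353) and *Col6a3* (3.22 ± 0.76, adjusted p = 0.00778). Control stood at 6.70, 7.87, 7.90 and 5.12 CPM for *Eln*, at 36.8, 33.2, 36.7 and 22.2 CPM for *Col1a2*, at 1.67, 3.93, 1.69 and 2.28 CPM for *Col18a1* and at 2.79, 6.74, 0 and 3.42 CPM for *Col6a3*. Outside replicate C the MCAO libraries lay above all controls for *Col1a2* and *Col18a1* and overlapped them for *Eln* and *Col6a3*. Without replicate C these 6 differences were 2.08, 2.43, 0.63, 1.64, 1.51 and 1.23, and none was called.

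Sham surgery itself moved no member past the threshold. Over all 20 sham libraries against control, none was called by edgeR or DESeq2, where 0% of all genes rose and 0.02% fell. An unadjusted p under 0.05 was given to 1 member, *Serpinh1*, which differed by −1.15 ± 0.52 (adjusted p = 1.000). Over all genes, 292 had such a p with higher and 663 with lower values. The median over the members was −0.21, and over all genes −0.02.

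Between day 3 and day 7 after MCAO no member was called with all libraries, where 0.015% of all genes rose and 0.02% fell. Of the 51, 13 had an unadjusted p under 0.05, and DESeq2 called none. Over all genes, 952 had such a p with higher and 1357 with lower values at day 7. Without replicate C, 2 members were lower at day 7 than at day 3, *Fn1* by −1.74 (adjusted p = 0.00188) and *Thbs1* by −4.08 (adjusted p = 0.00807), where 0.0452% of all genes rose and 0.578% fell. The direction of the whole list turned on this 1 library. The median of the members was 0.31 with it and −0.72 without it, that of the fibrillar collagens 1.23 and −0.93, and that of the basement membrane genes 0.03 and −0.75. The difference between the days after subtracting each day's sham called no member by edgeR or DESeq2, where 0% of all genes were called in either direction, and 9 members had an unadjusted p under 0.05. Over all genes, 1636 had such a p with higher and 1595 with lower values. The median of this difference over the members was 0.18, and −0.69 without replicate C.

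**Figure D4:**
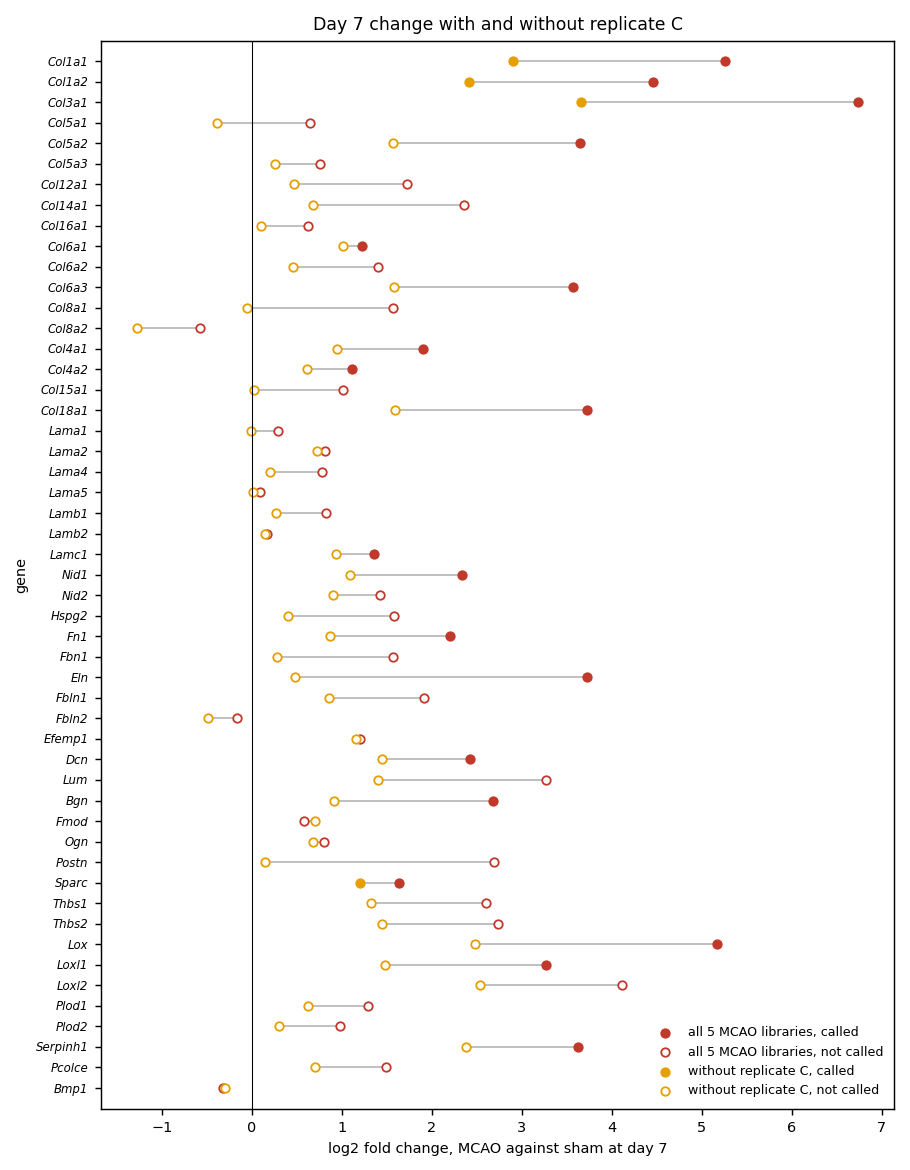
Log2 fold change of MCAO against sham at day 7 (x axis) for the 51 genes (y axis), with all 5 MCAO libraries and without replicate C. A line joins the values of each gene, filled points were called in that fit and open points were not. Most values are lower without replicate C, the list median moves from 1.57 to 0.70, and 4 genes were still called.

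Genes next to the matrix list in the pathway, from lists written from textbook knowledge, were counted in the same way. Of all genes, 3.76% rose and 0.26% fell at day 3, and 2.07% rose and 1.43% fell at day 7. The biosynthesis genes were called at a rate near these shares, though their medians lay above those of all genes. Of 20 tested genes of collagen biosynthesis outside the list, 1 rose at day 3, *P4hb* (1.14, adjusted p = 0.00199), a subunit of prolyl 4-hydroxylase, and none by edgeR at day 7, where 10 had an unadjusted p under 0.05 and DESeq2 called 2. Their medians were 0.48 and 0.69, where those of all genes were 0.01 and 0.06. With higher values, 8 had an unadjusted p under 0.05 at day 3 and 10 at day 7, as did 2730 of all 19970 genes at each day. Of 18 tested matrix receptors, 4 rose at day 3, the integrins *Itga6* (1.72), *Itgb1* (1.33) and *Itgb5* (1.92) and the hyaluronan receptor *Cd44* (3.63). At day 7, 3 rose, the collagen uptake receptor *Mrc2* (3.68), *Cd44* (3.45) and *Itgb5* (1.89), and without replicate C only *Cd44* did. *Cd44* had also risen at 12 h (3.15).

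*Cd44*, singled out after its values were seen, stood at 2.86, 1.87, 4.91 and 2.28 CPM in sham at day 7 and at 36.3, 19.8, 70.2, 14.9 and 22.5 CPM after MCAO. *Cd44* at day 3 stood at 5.44, 4.15, 8.41 and 2.81 CPM in sham and 9.61, 29.8, 126, 55.2 and 106 CPM after MCAO. It was thus called at 3 of the 5 times, earlier than any collagen. Of 38 tested other matrix proteins, 3 rose at day 3 (*Tgfbi* by 4.29, *Emilin2* by 3.91 and *Efemp2* by 2.03). At day 7, 2 rose (*Col25a1* by 1.47 and *Col27a1* by 1.36) and *Col19a1* fell by 1.27, and without replicate C only *Col19a1* was called. The median of this list was 0.38 at day 3 and 0.85 at day 7.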

How the data were processed

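Bulk RNA-seq libraries of mouse brain (48, in 11 groups) were analysed from the raw counts per gene that the authors deposited. The authors trimmed the reads, removed ribosomal and mitochondrial reads, aligned the rest with STAR 2.5.2b to GRCm38 and assigned them to Gencode vM8 genes by htseq-count (union). Symbols came from Gencode vM21 and matched 46488 of the 46983 identifiers. A matrix of log2 values, which the authors deposited after a variance-stabilizing transformation, served only as an alternative for the list means. No column was without a sample (0).

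Counts of genes with more than 10 reads in total entered 1 edgeR 4.0.16 fit of all groups under R 4.3.3, with TMM factors, glmQLFit, glmQLFTest and the study's thresholds. The biological coefficient of variation was 24.9%. List means were computed in Python 3.11.15 from log2(CPM + 1). Intervals of count ratios cover counting error only. The fitting script was tested on simulated data.

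The members and lists were chosen with earlier results of these data known. Genes with full values were, by rule, the 6 called members with the largest change at 24 h, day 3 and day 7, up to 3 in each other comparison, and 11 fixed ones at day 7. The other called members were added with their values. Alternatives were DESeq2 1.42.0, its size factors, filterByExpr, no filter, spike-in scaling, only the groups compared, a block for the letters, and leaving out each library in turn. For list means they were a pseudocount of 0.1, the median over members, members with a mean of at least 10 counts and the deposited matrix. Of the marker genes 1 is not reported here, and spatial and single-nucleus data were not analysed here.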

Additional observations from a re-analysis of the deposited data

Results flagged for a closer look

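In groups of 4 or 5 libraries, a value far from the rest of its group was looked for in 19 named genes over the 11 groups, 209 groups in all, of which chance gives about 1 in 20. There were 31 such values, and 16 of them were the highest value of MCAO at day 7, all in replicate C. These were *Col1a1* (2089.7 CPM), *Col1a2* (1669 CPM), *Col3a1* (1266 CPM), *Sparc* (1108 CPM), *Eln* (469 CPM), *Fn1* (443 CPM), *Dcn* (377 CPM) and *Col4a1* (291 CPM). The others were *Serpinh1* (182 CPM), *Col18a1* (127 CPM), *Col6a3* (124 CPM), *Lox* (70.2 CPM), *Nid1* (60.1 CPM), *Postn* (41.0 CPM), *Loxl2* (20.2 CPM) and *Thbs1* (19.6 CPM).

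The remaining 15 lay in several groups. *Lox* stood out in MCAO replicate E at day 3 (49.3 CPM), in sham replicate B at 3 h (3.45 CPM) and in sham replicate A at 12 h (0.558 CPM). *Col1a1* was highest (15.6 CPM) and *Col1a2* lowest (7.82 CPM) in the same sham library, replicate A at 12 h. *Dcn* was highest in sham replicate C at 3 h (145 CPM), and *Fn1* in control replicate C (39.5 CPM). *Lama2* was lowest in sham replicate D at day 7 (2.74 CPM) and highest in MCAO replicate C at day 3 (8.99 CPM). *Postn* was highest in MCAO replicate A at 3 h (3.62 CPM) and in sham replicate B at 3 h (0.576 CPM), and *Col3a1* in MCAO replicate A at 3 h (6.63 CPM). *Eln* was highest in MCAO replicate E at 12 h (9.53 CPM), *Col6a3* in sham replicate D at 24 h (7.34 CPM) and *Loxl2* in sham replicate B at day 3 (0.923 CPM). Among 22 groups of list means, the basement membrane mean of sham replicate D at 3 h (−0.059) lay far above the others of its group.

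Fitted differences of opposite sign at different times were flagged for *Dcn* and *Serpinh1*. They were not the only members whose sign changed, as *Lama2* differed by −1.70 at 12 h and by 0.81 at day 7. *Dcn* differed by −0.98 on the log2 scale at 3 h, which was not called, with sham replicate C far above the other shams and a ratio of medians of 1.09, in the other direction. Its fitted differences at 12 h, 24 h, day 3 and day 7 were above 0. *Serpinh1* differed by −0.57 at 3 h, not called, and rose at day 7. The differences between the times were not tested for these genes.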

How the results depend on the processing

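Of the alternatives, DESeq2, its size factors and filterByExpr left every count of called members within 1.5 times its main value, and the fit with only the groups compared gave 0 calls at 12 h against sham (1 in the fit of all groups), 2 at day 3 (14), 2 at day 7 (19), 1 at 24 h against control (0, *Dcn*), 1 at day 3 (10) and 2 at day 7 (13). Without a filter there were 2 calls at 12 h (*Thbs1* and *Lox*, both higher, in place of *Lama2*) and 3 between day 7 and day 3 (*Col1a1*, *Eln* and *Thbs1*). Letters were not taken to pair the libraries, since in no comparison did all same-lettered pairs correlate above 0.1. The correlations of their deviations ran from −0.26 to 0.15 over the 5 times against sham (2 of 4 pairs above 0.1 at 12 h and at 24 h, 0 at day 3 and day 7), from −0.13 to 0.29 for sham against control (10 of 20) and from −0.05 to 0.46 between day 7 and day 3 (2 of 5). With the replicate block the counts were 0 at 12 h, 9 at day 3 and 15 at day 7 against sham, and 6 at day 3 and 8 at day 7 against control. Leaving out 1 library gave 0 to 1 calls at 12 h, 7 to 20 at day 3 and 4 to 25 at day 7 against sham, 4 to 15 and 1 to 17 against control, and 0 to 2 between the days. *Lama1* at day 7, not called (0.29), turned sign in 2 leave-one-out fits, −0.0079 without MCAO replicate C and −0.0096 without sham replicate B, in a range of −0.0096 to 0.758. Spike-in scaling shifted the median of all genes by −0.23 at day 3 and 0.087 at day 7 against sham and by −0.30 and −0.13 against control, and it called 10, 20, 7 and 10 members, all higher. Over all genes it gave 349 higher and 345 lower calls at day 3 against control (561 and 56 in the main scaling) and 403 and 86 at day 7 against sham (413 and 285). The fibrillar mean at 3 h after MCAO was −0.29 in the deposited matrix. The basement membrane mean at 3 h was −0.16 with a pseudocount of 0.1, 0.11 over members with at least 10 counts, 0.020 in the deposited matrix and −0.18 with spike-in scaling, and at 12 h −0.21 with spike-in scaling. For named genes, 389 of the recomputed values kept their direction and call, 136 lost the call and 2 reversed. The causes of these changes were not tested.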
